A study of Mus musculus with 6 samples.

Results

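The genes described here are 5 ligands of the epidermal growth factor (EGF) family, Areg, Ereg, Hbegf, Tgfa and Btc, the receptors Egfr, Erbb2 and Erbb3, and the receptor inhibitor Errfi1. They were chosen by name, with earlier results of these data known, and matched by Entrez ID. All 9 were found among the 24594 genes of the count table. Shares of all genes given below are a scale for their counts and not a test of an independent choice. Expression was measured by RNA-seq in epithelial organoids, gel-grown cultures of intestinal crypts, from the proximal small intestine of TetON-hYAP/H2B-mCherry mice. In this line doxycycline switches on a constitutively active (S127A) human YAP, the coactivator restrained by the Hippo pathway, with a red fluorescent histone. The control group (3 libraries) had the same genotype without the drug, and the doxycycline group (3 libraries) received 1 µg/ml for 48 h from passaging. Both groups were grown with EGF at 50 ng/ml, Noggin and R-spondin1, so the family was measured in cells that already had an added ligand for the EGF receptor. The labels do not name the promoter behind the doxycycline switch. Their culture protocol, which also covers fetal organoids, gives adult crypts of 1 mouse for each sample, but does not say whether these 6 libraries came from separate mice or from repeated cultures, so p-values measure only the spread between the libraries. No library had doxycycline without the transgene, so drug and transgene cannot be told apart.

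Ligands of this family are made as membrane-anchored precursors and released by cell-surface proteases. The 5 described here bind EGFR, some of them also ERBB4, while neuregulins bind ERBB3 or ERBB4. Bound receptors pair with each other or with ERBB2 and signal through RAS-ERK and PI3K-AKT. ERBB2 has no known ligand of its own, and ERBB3, whose kinase is weak, couples mainly to PI3K. In the small intestine EGF receptor signalling supports crypt growth, with ligands provided by Paneth and stromal cells, and organoid medium supplies added EGF. Errfi1 (also called Mig6) binds the kinase domain of active ErbB receptors, and its transcription is itself raised by the pathway, which makes it a feedback brake.

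The libraries held 8533452 to 16803062 counts. Levels are given as CPM, counts scaled to library sizes that carry a TMM factor, and a gene is said to have risen or fallen if its adjusted p in edgeR's quasi-likelihood test over all 12909 genes tested was under 0.05. By that rule 45.3% of all genes were called, 21.7% higher and 23.6% lower with doxycycline, against which the counts below should be read. Of the control libraries, replicate 3 was the least like the rest (correlation of log2 CPM 0.916 and 0.9189, against 0.9909 between replicates 1 and 2), and leaving it out raised the called share to 69.9% (34.9% higher and 35.1% lower). Epithelial markers summed to 5174 to 6046 CPM in control and 18950 to 20150 CPM in doxycycline libraries. Markers of mesenchyme summed to 0.154 to 1.01 CPM in control and 0.565 to 0.925 CPM in doxycycline libraries, with Col1a1, Dcn, Lum and Thy1 at 0 in all 6. Immune markers summed to 23.0 to 46.0 and 30.3 to 32.3 CPM and endothelial ones to 1.69 to 2.52 and 2.22 to 2.76 CPM.

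Of the 9 genes, 7 rose with doxycycline and none fell, and no fitted change was negative in edgeR with TMM, DESeq2 or limma-voom with all libraries. The 5 ligands, Egfr and Errfi1 rose, while Erbb2 and Erbb3 did not pass the test. In 8 of the 9 every doxycycline library was above every control library, which held for 30.0% of all genes tested, while the reverse, true of 31.3% of all genes, held for none. The median log2 fold change was 2.30 for the ligands and -0.08 for all genes. In edgeR's test against a 2-fold change, which called 8.20% of all genes higher, 5 of the 9 passed (Areg, Ereg, Hbegf, Egfr and Errfi1).

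**Figure D1:**
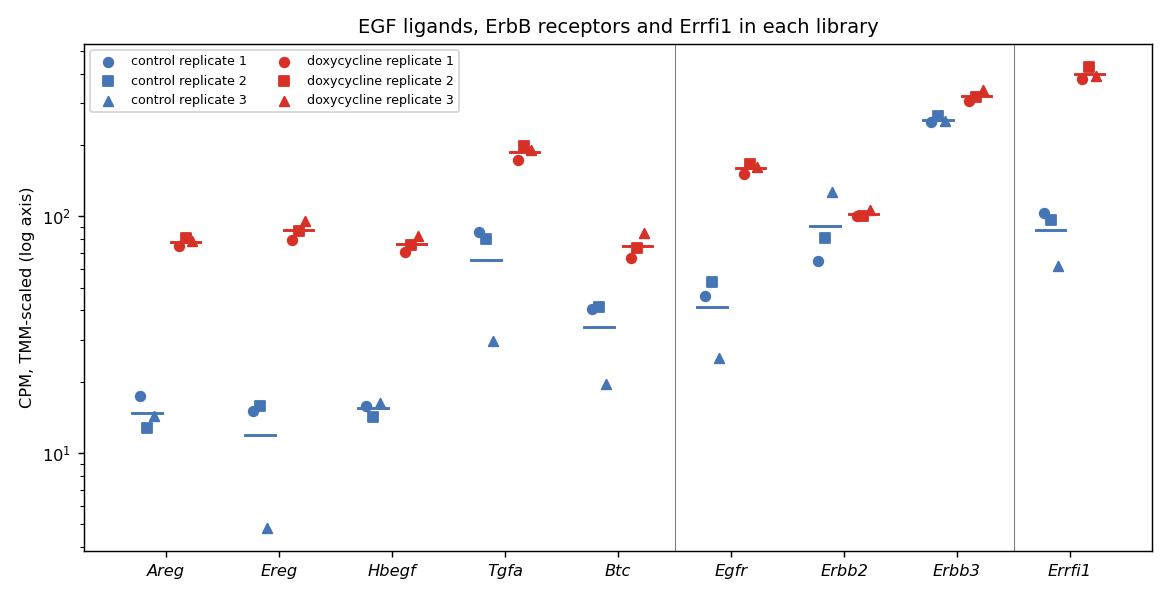
CPM (log axis) of the 9 genes in each library, with control libraries in blue, doxycycline libraries in red, a marker shape per replicate number and a line at the group mean. The red points lie above the blue ones for every gene but Erbb2, and control replicate 3 is the lowest library for Ereg, Tgfa, Btc, Egfr and Errfi1.

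Areg encodes amphiregulin, a low-affinity EGFR ligand. It lies on chromosome 5 (91139599 to 91148432, GRCm38.p6) and measured 17.4, 12.7 and 14.4 CPM without doxycycline and 75.0, 80.7 and 78.8 CPM with it. The control libraries were close to each other and far from the doxycycline libraries. The fitted log2 change was 2.40 (SE 0.177, edgeR adjusted p = 0.000138), or 5.27-fold between group means. The fold change stayed between 2.30 and 2.53 on the log2 scale with any single library left out, at 2.38 without control replicate 3.

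Because Areg rose while its locus held other members of the family, the 250 bases before its annotated start (RefSeq, GRCm38.p6, plus strand, chr5:91139349-91139598) are shown. Capitals mark any match to the TEAD motif GGAATG, the AP-1 motif TGANTCA or the cAMP response element TGACGTCA, each on both strands.

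Areg: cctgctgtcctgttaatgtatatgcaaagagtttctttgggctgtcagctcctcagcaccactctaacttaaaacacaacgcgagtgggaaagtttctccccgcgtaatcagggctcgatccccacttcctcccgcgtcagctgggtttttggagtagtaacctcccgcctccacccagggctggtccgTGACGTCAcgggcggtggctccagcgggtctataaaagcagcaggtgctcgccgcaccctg

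The window holds a single match, a TGACGTCA from 61 to 54 bases before the start. That motif was added to the search after the promoter sequences of these genes were seen. It occurs in 1.5% of the 32851 promoter windows of this length, against 12.6% for GGAATG and 6.7% for TGANTCA. A match describes the letters and is not a measured binding site, and the window says nothing of elements farther away.

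Ereg encodes epiregulin, a ligand of EGFR and ERBB4 (chromosome 5, 91074617 to 91093649). Control libraries had 15.0, 15.8 and 4.83 CPM, and doxycycline libraries 79.2, 86.9 and 95.1 CPM. It had the largest fitted rise of the 9 genes, 2.86 on the log2 scale (SE 0.423, edgeR adjusted p = 0.00199). Control replicate 3 was the lowest library, and the value was 2.52 without it (adjusted p = 2.24e-13). The annotated lncRNA Gm19610 overlaps the start of Ereg, and reads from the 2 genes cannot be told apart where the use of strand is unknown.

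Hbegf encodes heparin-binding EGF-like growth factor, whose membrane form also acts on neighbouring cells. It had 15.9, 14.2 and 16.3 CPM in control and 70.6, 75.9 and 82.3 CPM in doxycycline libraries. The rise of 2.30 on the log2 scale (SE 0.157, edgeR adjusted p = 0.000109) had the smallest SE of the 5 ligands. Leaving out single libraries moved it only between 2.25 and 2.36, with 2.35 without control replicate 3.

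Tgfa encodes transforming growth factor alpha, an EGFR ligand that Paneth cells are known to make (chromosome 6, 86195038 to 86275744). Its control values were 85.9, 80.2 and 29.8 CPM and its doxycycline values 173, 198 and 190.3 CPM. The groups did not overlap, but control replicate 3 was far below the other controls. Tgfa rose by 1.52 on the log2 scale (SE 0.381, edgeR adjusted p = 0.0166) and by 1.19 without control replicate 3 (adjusted p = 2.60e-10). The call was lost without doxycycline replicate 2 (adjusted p = 0.0582) or 3 (adjusted p = 0.0543). Paneth cell markers went the other way, with 8 of 8 tested lower and a sum of 2310 to 4734 CPM in control libraries and 34.7 to 39.4 CPM with doxycycline.

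Btc encodes betacellulin, which binds EGFR and ERBB4 (chromosome 5, 91357261 to 91402994, minus strand). It had 40.8, 41.3 and 19.6 CPM without and 66.5, 73.7 and 85.2 CPM with doxycycline. This was the smallest rise among the ligands, 1.15 on the log2 scale (SE 0.299, edgeR adjusted p = 0.0193), and 0.89 without control replicate 3 (adjusted p = 3.84e-07). The call was lost without doxycycline replicate 2 (adjusted p = 0.0607) or 3 (0.0725) and when libraries were scaled by total counts alone (log2 change 0.70, adjusted p = 0.0814).

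Areg, Ereg and Btc lie near each other on chromosome 5 with Epgn, the gene of the ligand epigen. Of 21 annotated genes within 500 kb of Areg, 15 were in the table and 6 had enough counts to be tested. The 4 that rose were the members Ereg, Areg and Btc, described above, and Parm1, a mucin-like membrane protein gene. Because the window was set around a member, this count is not a test of the locus, and 21.7% of all genes rose. Parm1 had 81.6, 81.8 and 38.9 CPM without and 142, 139 and 145 CPM with doxycycline (log2 change 1.08, edgeR adjusted p = 0.0221). The call of Parm1 was lost without any one doxycycline library (adjusted p = 0.0669 to 0.0710) and with total counts (0.103). Rassf6 and Mthfd2l, which lie beyond Epgn, did not pass (adjusted p = 0.199 and 0.273), though Rassf6 passed as higher without control replicate 3 (adjusted p = 0.000327) and Mthfd2l as lower with total counts (0.0361). Epgn was nearly silent, with 16 counts in the control group and 2 in the doxycycline group. The chemokine genes of the window held 0 to 23 counts over a group.

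Outside the 5 named ligands, the family was close to silent in these organoids. Egf itself had 27 counts over each group. Nrg1 had 2 counts in the control group and 7 in the doxycycline group, Nrg2 had 0 and 1 and Nrg3 had 1 and 0. Erbb4 had 0 counts in all 6 libraries, which allows up to 0.0873 CPM in control and 0.0736 CPM in doxycycline organoids. These limits cover counting error only, since reads are not independent molecules. The exception was Nrg4, an ERBB4 ligand, at 9.12, 7.08 and 16.3 CPM in control and 4.25, 5.92 and 5.72 CPM in doxycycline libraries. Nrg4 did not pass (log2 change -1.02, SE 0.356, edgeR adjusted p = 0.0527), though the groups did not overlap. It was the only one of these 7 genes with enough counts to be tested, and it passed as lower without control replicate 3 (log2 change -0.60, adjusted p = 0.0252) or 2 (adjusted p = 0.0325), with DESeq2 (0.0233) and with total counts (0.0120).

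Egfr (chromosome 11, 16752203 to 16913907), the receptor of all 5 ligands, had 45.9, 52.9 and 25.3 CPM in control and 151, 167 and 160.8 CPM in doxycycline libraries. It rose by 1.94 on the log2 scale (SE 0.281, edgeR adjusted p = 0.00182). The change was 1.71 without control replicate 3 (adjusted p = 3.02e-12) and 2.16 at most with another library left out. All doxycycline libraries were well above the highest control.

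Erbb2 (chromosome 11, 98412484 to 98437716), the coreceptor, had 64.8, 81.1 and 126.7 CPM in control and 100.0, 100.0 and 106.7 CPM in doxycycline libraries. The groups overlapped because control replicate 3 was the highest of the 6. The fitted log2 change was 0.17 (SE 0.256, edgeR adjusted p = 0.616). It was 0.51 without control replicate 3 (adjusted p = 0.000115) and -0.02 without control replicate 1 (0.947), so neither a rise nor its absence was settled by these libraries.

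Erbb3 (chromosome 10, 128567523 to 128589635) had 249.8, 264 and 253 CPM in control and 306, 318 and 343 CPM in doxycycline libraries. All 3 doxycycline libraries were above the controls, by a small margin. The log2 fold change of 0.33 (SE 0.143) did not pass in edgeR (adjusted p = 0.0966). It passed with DESeq2 (0.36, adjusted p = 0.00812) and without control replicate 3 (0.34, adjusted p = 0.000495). Scaled by total counts alone, the fitted changes of Erbb2 and Erbb3 were -0.27 and -0.11, where the median of all genes was -0.52 against -0.08 with TMM, so the direction of these small differences depends on the scaling. The 7 genes that rose had positive fold changes under both scalings.

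**Figure D2:**
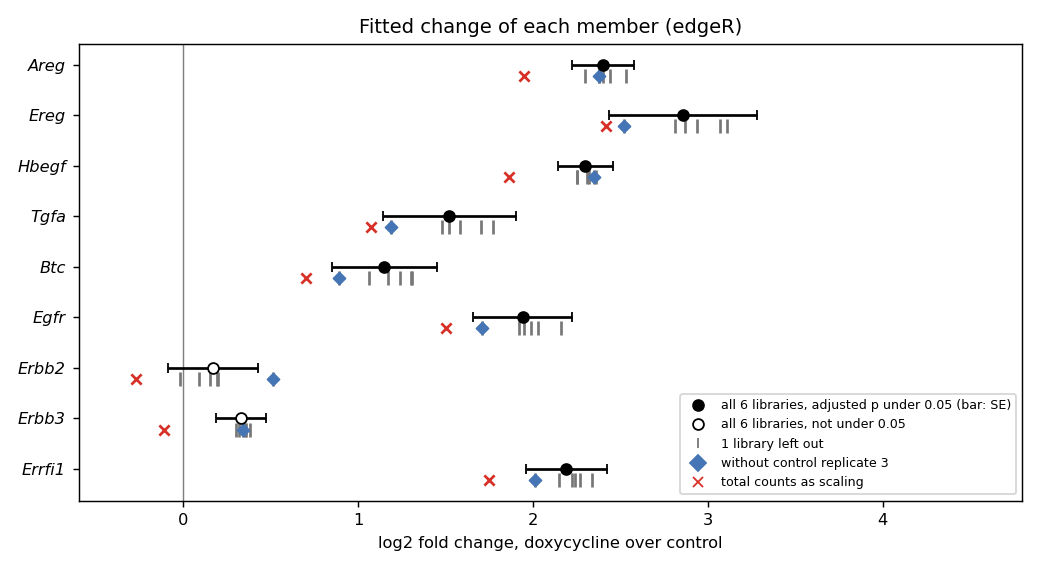
Fitted log2 fold change of each gene (black, bar 1 SE; open where the adjusted p was not under 0.05), with the values from leaving out 1 library (grey ticks), control replicate 3 (blue) or using total counts (red cross). Ligands, Egfr and Errfi1 stay right of 0, from 0.70 for Btc with total counts to 3.11 for Ereg, and Erbb2 and Erbb3 lie on both sides of 0.

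Errfi1 (chromosome 4, 150853796 to 150868889) had 104, 96.1 and 61.5 CPM in control and 379.7, 426.6 and 389.8 CPM in doxycycline libraries. It rose by 2.19 on the log2 scale (SE 0.232, edgeR adjusted p = 0.000533), or 4.58-fold between group means, and the groups were far apart. With single libraries left out the change was 2.01 to 2.34, and the lowest was without control replicate 3. Errfi1 had 2 annotated starts, and the 250 bases before each are shown (RefSeq, GRCm38.p6, plus strand, chr4:150853546-150853795 and chr4:150854820-150855069), with the same motifs in capitals.

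Errfi1, upstream start: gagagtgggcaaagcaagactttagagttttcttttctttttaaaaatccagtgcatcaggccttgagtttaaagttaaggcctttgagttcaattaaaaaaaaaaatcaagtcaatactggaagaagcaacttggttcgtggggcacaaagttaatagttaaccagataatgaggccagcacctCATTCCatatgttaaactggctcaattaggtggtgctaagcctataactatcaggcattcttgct

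Errfi1, downstream start: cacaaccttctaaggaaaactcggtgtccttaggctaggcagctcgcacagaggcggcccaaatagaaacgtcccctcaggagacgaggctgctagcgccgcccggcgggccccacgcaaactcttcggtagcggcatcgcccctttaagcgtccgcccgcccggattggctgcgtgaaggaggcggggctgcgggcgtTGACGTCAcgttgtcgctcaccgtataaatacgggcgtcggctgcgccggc

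The first window holds CATTCC, which is GGAATG on the other strand, from 65 to 60 bases before the start. The second holds TGACGTCA from 51 to 44 bases before its start, the same 8 letters as in the Areg window. Since that motif was added after these windows were seen, the shared match is a description only. In all, 6 of the 9 genes had an entry among the windows searched, in 7 windows. The windows searched, and the 32851 promoter windows above, left out 1 chromosome. Erbb2 had 1 GGAATG, at 88 to 83 bases before its start, and the windows of Btc, Egfr and Tgfa held none of the 3 motifs. TGANTCA was found in none of the 7. The counts do not say which Errfi1 start was used.

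Levels of different genes were compared per kb of exon. In the control libraries the order of mean level was Erbb3 (42.5 CPM per kb), Errfi1 (26.9), Erbb2 (18.1), Tgfa (14.4), Areg (12.2), Btc (11.8), Hbegf (6.51), Egfr (3.77) and Ereg (2.88). Erbb3 was clear of the next gene and Hbegf of Egfr, and the ranges of all other neighbours in that order overlapped. Part of that order turned on control replicate 3. Tgfa was above Erbb2 in control replicates 1 (19.0 against 12.9) and 2 (17.7 against 16.2) and below it in replicate 3 (6.58 against 25.3). With doxycycline the order was Errfi1 (123 CPM per kb), Areg (64.3), Erbb3 (53.5), Tgfa (41.4), Hbegf (32.1), Btc (26.1), Ereg (21.1), Erbb2 (20.4) and Egfr (14.6). There every neighbouring pair was apart except Ereg and Erbb2. Errfi1 thus passed Erbb3, and Areg moved from the middle of the order to second place. Egfr has a long exon union of 10.95 kb, and with the median transcript length of 6.58 kb its doxycycline level was 24.2 CPM per kb, above Ereg and Erbb2.

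The summed level of the 5 ligands was 57.8, 52.4 and 33.3 CPM per kb in control and 172, 189 and 194 CPM per kb in doxycycline libraries, a log2 difference of 1.99 (exact permutation test, two-sided, p = 0.1). With 3 libraries against 3 no p under 0.1 can be reached, and the sums here are descriptions rather than independent tests of the genes above. The receptor sum was 58.6, 64.9 and 69.7 CPM per kb against 84.6, 88.0 and 92.9, a log2 difference of 0.46 (exact permutation p = 0.1) that was 0.02 with total counts as the scaling (exact permutation p = 0.9). The ligand difference was 1.55 with total counts.

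**Figure D3:**
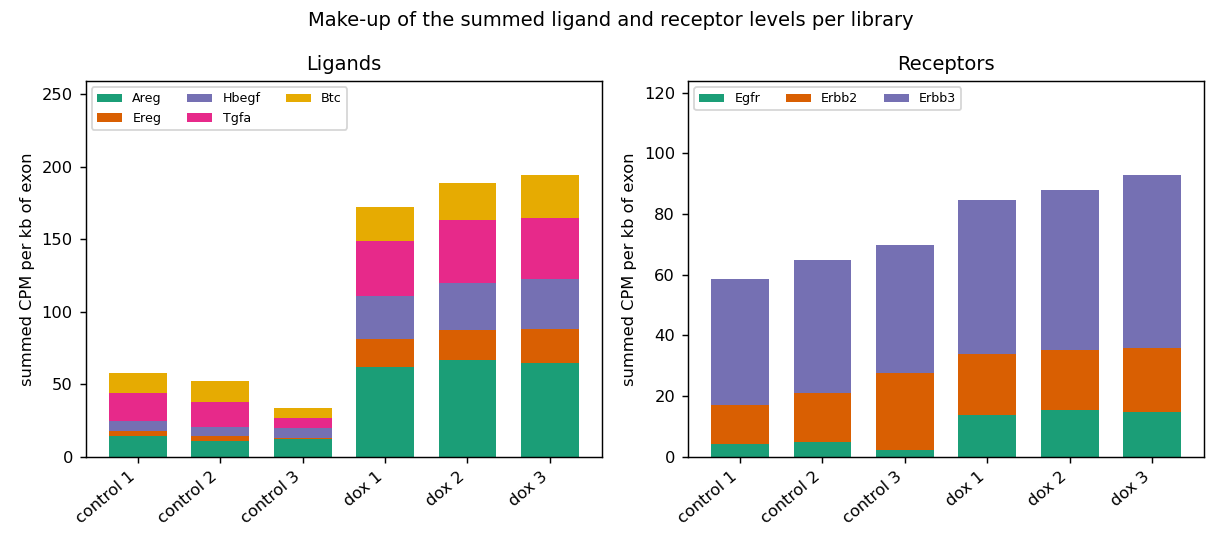
Summed CPM per kb of exon in each library, stacked by gene, for the 5 ligands (left) and the 3 receptors (right). The ligand bars go from 33.3 to 57.8 in control to between 172 and 194 with doxycycline, and Erbb3 is the largest part of the receptor bars in every library.

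The make-up of these sums differed as well. Areg made up 24.8, 19.96 and 35.6% of the ligand sum in control and 35.9, 35.2 and 33.4% in doxycycline libraries, and these ranges overlapped (exact permutation p = 0.3; difference 8.05 percentage points). That difference was 12.46 points without control replicate 3, 4.64 without control replicate 2 and 4.0 with no length scaling, so its size was not settled. Ereg went from 6.30, 7.30 and 3.52% to 11.2, 11.1 and 11.9%, with no overlap. The share of Btc went the other way, from 24.5, 27.4 and 20.5% to 13.4, 13.6 and 15.3%, although its level rose. Among the receptors Egfr went from 7.15, 7.44 and 3.31% of the sum to 16.3, 17.3 and 15.8% (difference 10.49 percentage points, exact permutation p = 0.1), while Erbb3 stayed the largest part at 60.0 to 70.8% over the 6 libraries. The difference in the Egfr share was 15.18 points with the median transcript length, so its size depends on the length used. The ratio of Errfi1 to the receptor sum was 0.546, 0.458 and 0.273 in control and 1.39, 1.50 and 1.30 in doxycycline libraries, a log2 difference of 1.77 (exact permutation p = 0.1; 1.48 without control replicate 3).

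Control replicate 3 differed from the other controls by gene length. Over all genes tested its log2 CPM minus the mean of the other controls had a median of 0.92 for exon lengths up to 1 kb and of -0.80 for lengths over 7 kb. Among the 9 genes this difference was -1.64 for Ereg, -1.47 for Tgfa, -1.06 for Btc, -0.96 for Egfr and -0.70 for Errfi1. It was -0.05 for Areg, 0.12 for Hbegf and -0.02 for Erbb3, and 0.80 for Erbb2. The 7 genes that rose were below the median of their length class, from 0.15 below for Hbegf and 0.16 for Egfr through 0.67 for Errfi1 and 0.72 for Areg to 1.21 for Tgfa, 1.33 for Btc and 1.37 for Ereg. Erbb3 was 0.49 and Erbb2 1.32 above theirs. The part of length or of this library's RNA in the results was not tested, and the fitted changes without the library are given with each gene.

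**Figure D4:**
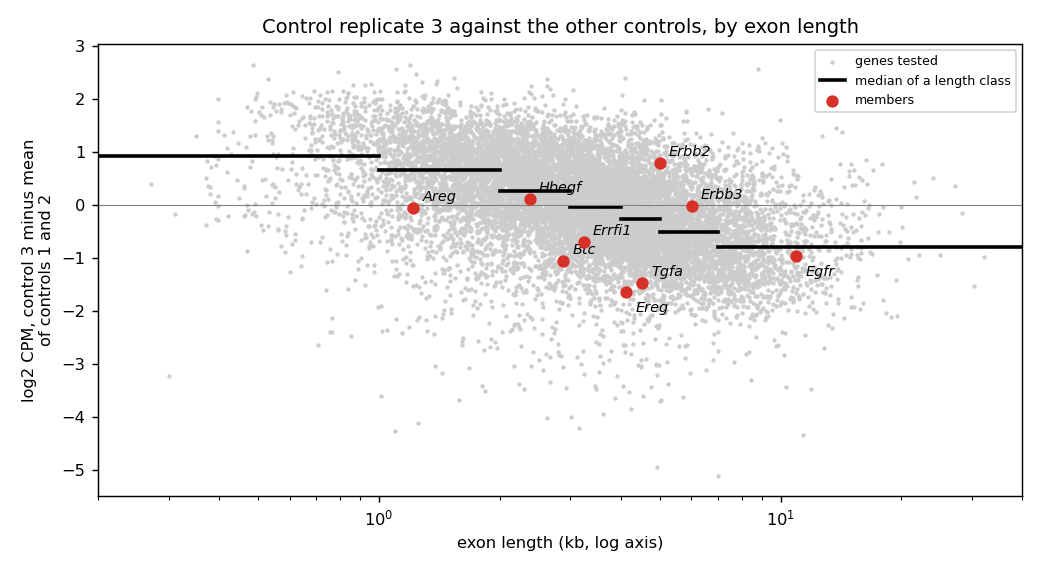
Log2 CPM of control replicate 3 minus the mean of control replicates 1 and 2 against exon length (kb, log axis), with all tested genes in grey, the median of each length class as a black line and the 9 genes in red. The class medians fall from 0.92 to -0.80, and Erbb2 at 0.80 lies above its class while Ereg at -1.64 lies below.

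The other genes of the pathway were taken from 6 lists, also chosen with earlier results of these data known. The lists had 83 genes in the table, of which 75 had enough counts to be tested. Of these, 22 rose (29.3%, against 21.7% of all genes) and 7 fell (9.33%, against 23.6%), with a median log2 fold change of 0.35. Without control replicate 3, 38 rose and 11 fell of 76 tested, where 34.9% of all genes rose and 35.1% fell. Of the 75, 11 rose and 14 fell with total counts as the scaling, 14 rose and 7 fell without doxycycline replicate 1, and 12 rose and 7 fell without doxycycline replicate 2 or 3. Over all genes, 6878 were called in either direction with total counts, where the median log2 change was -0.52, against 5850 with TMM. Without doxycycline replicate 1, 2 or 3 the totals were 4245, 3862 and 3836. Shares by direction were not taken for these settings. The rise and fall counts of these lists therefore move with the scaling and with the libraries used, and those given below are with TMM and all libraries.

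Of 10 genes that process ligand precursors, 3 rose and 1 fell. Timp3, a matrix-bound inhibitor of the sheddase ADAM17, fell from 21.8, 20.1 and 15.1 to 4.75, 4.44 and 3.96 CPM (log2 change -2.12, edgeR adjusted p = 0.000533). Frmd8, which stabilises the iRhom and ADAM17 complex at the cell surface, rose from 71.0, 73.0 and 87.3 to 152, 149 and 161 CPM (log2 change 1.00, edgeR adjusted p = 0.00231). Cnih4, a cornichon family gene of the early secretory pathway, rose by 0.95 on the log2 scale (edgeR adjusted p = 0.00243). In edgeR the log2 changes of Frmd8 and Cnih4 were 0.56 and 0.51 with total counts, and both stayed called. Adam17 itself, chosen after its values were seen, had 49.2, 48.9 and 45.8 CPM in control and 59.1, 55.3 and 50.5 CPM in doxycycline libraries and did not pass (adjusted p = 0.306).

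Of 17 genes of receptor turnover and restraint, 7 rose and 2 fell. The 2 that fell were members of the Lrig family, transmembrane proteins of which Lrig1 promotes degradation of ErbB receptors. Lrig1 had 241, 246 and 132 CPM in control and 54.2, 56.5 and 56.3 CPM in doxycycline libraries (log2 change -1.89, edgeR adjusted p = 0.00153), and Lrig3 fell by 0.99 on the log2 scale (edgeR adjusted p = 0.00386). Lrig1 is also a known marker of intestinal stem cells, and all 10 crypt base stem cell markers fell, with a summed level of 4978 to 7102 CPM in control and 208 to 227 CPM in doxycycline libraries. In bulk RNA fewer cells of a type and less RNA per cell cannot be told apart, and the part of that change in the Lrig1 value was not tested. Ubash3b, which encodes a Cbl-binding phosphatase family protein, rose from 2.11, 1.23 and 1.01 to 13.4, 14.7 and 15.1 CPM (log2 change 3.27, edgeR adjusted p = 0.000372).

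Of 20 adaptor and RAS-ERK genes, 5 rose and 0 fell in edgeR (0 at an unadjusted p under 0.05, and 0 also with DESeq2 and limma-voom). Map2k1 and Map2k2, the kinases that activate ERK, rose by 1.09 and 0.73 on the log2 scale (edgeR adjusted p = 0.00107 and 0.0144), and the adaptor gene Shc1 by 0.55 (edgeR adjusted p = 0.0175). Map2k1 stayed called with each other scaling, filter and tool and with any library left out. The call of Map2k2 was lost with total counts (adjusted p = 0.207, at a change of 0.29), and also without control replicate 1 or 2 or doxycycline replicate 2 or 3 (adjusted p = 0.0522 to 0.0634). That of Shc1 was lost with total counts (adjusted p = 0.567, at a change of 0.11) and without any one library but control replicate 3 (adjusted p = 0.0563 to 0.0764). Of the 11 PI3K-AKT genes tested, 1 rose and 1 fell. They were Pik3cb, a catalytic subunit gene (18.1, 14.2 and 17.3 to 62.2, 52.7 and 49.8 CPM, edgeR adjusted p = 0.000448), and Pik3r3, a regulatory subunit gene (53.6, 55.6 and 30.9 to 17.1, 20.3 and 19.6 CPM, edgeR adjusted p = 0.00617).

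Of 16 genes of ERK output and feedback, 6 rose and 3 fell. Dusp5, a nuclear ERK phosphatase, rose from 77.7, 80.2 and 77.4 to 338, 359 and 354 CPM (log2 change 2.16, edgeR adjusted p = 0.000101). Ier3, an immediate early gene, rose by 1.95 on the log2 scale (edgeR adjusted p = 0.000475), while the ETS factor gene Etv5 fell by 1.96 (edgeR adjusted p = 0.000241). Genes that ERK is known to induce thus went both ways, and no single direction describes the list.

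**Figure D5:**
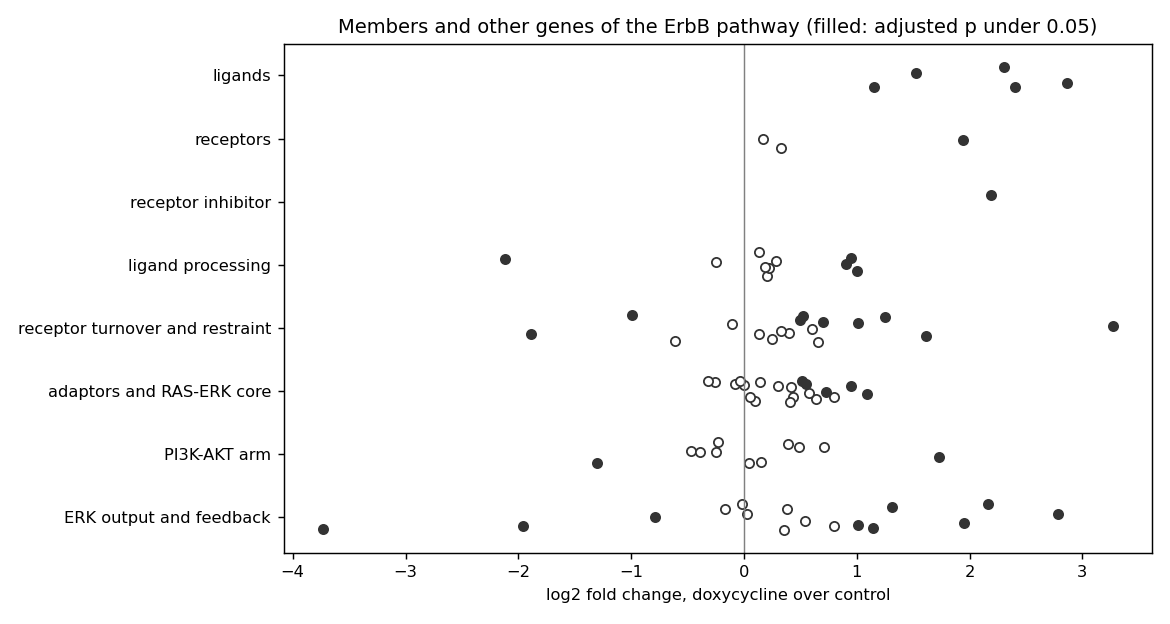
Log2 fold change of every tested member and of the other pathway genes by list, with filled points for an adjusted p under 0.05. The 5 ligands lie between 1.15 and 2.86, and each list from ligand processing to ERK output and feedback, apart from the adaptors and RAS-ERK core, has filled points on both sides of 0.

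The genes whose pattern over the 6 libraries was most like that of Ereg, the largest rise, were found by the root-mean-square difference of gene-centred log2 CPM among genes averaging 5 CPM or more. They were Paqr8 (0.101), Sowaha (0.107) and the ERK phosphatase gene Dusp6 (0.110), which is also in the ERK list. Dusp6 had 39.7, 44.6 and 15.7 CPM in control and 206, 244 and 239.6 CPM in doxycycline libraries. Like Ereg it was lowest in control replicate 3, a library that was part of the measure used to find it. None of the 9 genes fell, so no counterpart was sought. Enterocyte markers were higher with doxycycline as well, with 10 of 11 called and a summed level of 2582 to 4147 CPM in control and 19790 to 21060 CPM in doxycycline libraries. Of the 9 epithelial markers 6 rose and 1 fell, and their sum went from 5174 to 6046 CPM to between 18950 and 20150 CPM. Its largest parts with doxycycline were the keratins Krt19, Krt8 and Krt18 (group means 8879, 4691 and 1953 CPM, against 1607, 730.6 and 261.5 in control). Cdx1 fell from a mean of 292.6 to 16.5 CPM. Epcam (583.2 and 528.3 CPM) and Cdx2 (375 and 484.9 CPM) did not pass, so the sum does not describe every marker. The part of these shifts in the rise of the ligands, Egfr and Errfi1 was not tested.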

How the data were processed

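RNA-seq libraries (TruSeq RNA kit, NextSeq, per the labels' protocols) were given as one deposited table of whole-number read counts per Entrez gene for 6 libraries, made on build mm10 according to the submitters' processing notes. The choice of aligner, counting tool, annotation and strand is not given in the sources used here. Symbols and positions came from RefSeq's GRCm38.p6 gene table (24570 of 24594 IDs matched) and exon lengths from GENCODE M21 on the same build, as the union of basic exons (21357 IDs).

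Counts were tested with edgeR 4.0.16 in R 4.3.3, with filterByExpr by group, TMM and robust quasi-likelihood F-tests, and Benjamini-Hochberg adjustment over the 12909 genes tested. SE is the absolute log2 fold change over the square root of F. Sums, shares and ratios were compared by an exact two-sided permutation test over libraries (20 assignments). The edgeR step was tested on simulated data. The alternatives tried were scaling by RLE factors, by total counts or by TMM with the 20 highest genes removed, no filter or one of 10 counts in 3 libraries, DESeq2 1.42.0, limma-voom (limma 3.58.1), a block for the replicate number, leaving out each library, a threshold of 0.01 and a test against a 2-fold change. For sums they also included no length scaling, other family members added and, added after the data were seen, the median protein-coding transcript length.

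The members and lists were chosen with earlier results of these data known. The genes named beside the members were the other ligands and Erbb4, the 3 called genes with the smallest adjusted p of each other list, genes within 500 kb of Areg and the 3 genes most like the member with the largest rise (a largest fall was provided for, but no member fell). Library totals were 8533452 to 16803062 counts. Precision is limited by 3 libraries per group.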

Additional observations from a re-analysis of the deposited data

How the results depend on the processing

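Every member that rose kept a positive fold change under every alternative. The number of members called, 7, was 5 to 9 over the alternatives, with 6 with total counts and 8 with DESeq2. Of all genes, 5850 were called, and 6878 with total counts, 2112 in the test against a 2-fold change and 3477 at a threshold of 0.01. With single libraries left out 3836 to 9286 were called. The lowest count was without doxycycline replicate 3 (3862 without replicate 2) and the highest without control replicate 3. Of the 75 other pathway genes, 22 rose and 7 fell, and 11 and 14 did with total counts, 5 and 4 in the 2-fold test and 11 and 7 at 0.01. With single libraries left out 12 to 38 rose and 7 to 11 fell, of 75 or 76 tested. The cause of these changes was not tested, apart from the stricter thresholds. The fitted change of Erbb2 (0.17) turned to -0.27 with total counts and to -0.02 without control replicate 1 (0.51 without control replicate 3), and that of Erbb3 (0.33) to -0.11 with total counts. The log2 ligand sum difference of 1.99 was 1.55 with total counts, and the receptor sum difference of 0.46 was 0.02 with total counts and 0.59 with no length scaling. The Egfr share difference of 10.49 percentage points was 16.56 with no length scaling and 15.18 with the median transcript length. With the replicate block 4509 genes and 7 members were called, and of the called pathway genes named above only Shc1 was not (edgeR adjusted p = 0.0889). Same-numbered libraries deviated from their group means with correlations of -0.299, 0.119 and -0.187, and no library of either group correlated best with its own number. Deviations of 3 libraries from their own mean depend on each other, so this check cannot settle whether the numbers are pairs. The main fit did not take them as pairs.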
